A study of Mus musculus with 12 samples.

Results

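Astrocyte markers were followed through a study of TOP1, the type 1 topoisomerase that relaxes supercoiled DNA, in cultures of mouse cortical neurons. The markers were 10 genes with high expression in astrocytes, found by their symbols among the 23893 genes of the count table. They were *Gfap*, *Aqp4*, *Gja1*, *Gjb6*, *Slc1a2*, *Slc1a3*, *Aldh1l1*, *Glul*, *Aldoc* and *Sox9*, and all 10 averaged 1 CPM or more (CPM, counts scaled to the size of the library). Astrocytes arise from the same progenitors as cortical neurons, at the end of neurogenesis, and a culture of embryonic cortex therefore holds some of them beside its neurons. They take up glutamate through the transporters encoded by *Slc1a2* (GLT-1) and *Slc1a3* (GLAST), turn it into glutamine with glutamine synthetase (*Glul*), pass water through aquaporin 4 (*Aqp4*) and couple to each other through gap junctions of connexin 43 (*Gja1*) and connexin 30 (*Gjb6*). GFAP is their intermediate filament, ALDOC their aldolase of glycolysis, ALDH1L1 an enzyme of folate metabolism, and SOX9 a transcription factor of the astrocyte lineage.

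In all, 12 libraries of polyA RNA were compared, in 4 groups of 3. The WT groups had intact *Top1*, with vehicle (WT-Veh) or topotecan (WT-Topot), and those named Top1 cKO-Veh and Top1 cKO-Topot had lost it in neurons. All cultures were cortical neurons of mouse embryos of embryonic day E13.5 to E15.5, described in the paper as Top1 fl/fl, whereas the labels call the strain C57BL6 and the WT genotype wild type. Lentivirus was added 3 days after plating (DIV 3), carrying tdTomato (WT) or tdTomato and CRE (Top1 cKO). Topotecan at 300 nM, which traps TOP1 on DNA, or its vehicle of 0.003% DMSO was given at DIV 15 for 3 days. CRE was driven by the CaMKIIα promoter, which is active in excitatory neurons, so the deletion did not target astrocytes, while topotecan was added to the medium of the whole culture. About 85 to 90% of cells were said to be transduced. Each library of a group came from a culture of its own, and the labels number them 1 to 3 without saying what a number stands for. *Top1* itself stood at 117 to 163 CPM in the 6 libraries without CRE and at 27.1 to 44.0 CPM in the 6 with it, so that the groups did not overlap. Total counts ran from 1730164 to 4583777 per library, and 1 CPM was worth 1.73 to 4.58 counts. Neuronal markers were abundant in every library, at 7714 to 10006 CPM summed over 10 genes, and the 10 astrocyte markers summed to 1473 to 7153 CPM. In bulk RNA, fewer astrocytes and less RNA per astrocyte cannot be told apart.

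The level of the markers in untreated control cultures spanned a wide range. Per kilobase of exon, *Glul* had the highest mean level in WT-Veh at 165 ± 61.7 CPM per kb (SD, n = 3), followed by *Gfap* at 158 ± 101, *Aldoc* at 118 ± 36.1 and *Slc1a2* at 116 ± 31.7. The ranges of these 4 genes over the 3 libraries overlapped, so their order was within the spread. *Slc1a3* at 65.9 ± 28.7, *Gja1* at 62.1 ± 56.9 and *Aqp4* at 35.6 ± 29.0 CPM per kb came next, again with overlapping ranges. *Sox9* stood at 17.1 ± 10.3, and the lowest members were *Aldh1l1* at 3.85 ± 2.99 and *Gjb6* at 2.95 ± 1.65 CPM per kb. *Gjb6* therefore rested on few reads, 8 to 37 counts per WT-Veh library, and its folds are the least precise of the 10.

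The first comparison asked what topotecan did in cultures with intact *Top1*. *Gfap*, *Slc1a2* and *Slc1a3* dropped 2.62- to 5.83-fold and passed the test, *Aqp4*, *Gja1* and *Gjb6* dropped 2.93- to 9.07-fold and passed once replicate numbers were taken into account, and *Aldoc*, *Sox9*, *Glul* and *Aldh1l1* did not pass. Without regard to the replicate numbers, 3 of the 10 markers were lower at an FDR of 0.01 (edgeR quasi-likelihood test) and 0 were higher, where 2.04% of all 23893 genes were lower and 0.682% higher. With replicate numbers as a block, 6 of 10 were lower and 0 higher, where 5% of all genes were lower and 3.24% higher. The 3 genes added by the block were *Aqp4*, *Gja1* and *Gjb6*. With the block 2 residual degrees of freedom were left in a comparison of 6 libraries, and the fit over all genes added prior degrees of freedom of 114 here and without limit for the deletion in vehicle, so that each gene was tested with a variance close to that of other genes at its level. The blocked fit was therefore repeated, after the data were seen, without genes of low counts, where the prior was 9.51 here and 15.4 for the deletion. In that filtered fit 6 of 10 markers were again lower, the same genes, where 7.52% of 12145 genes were lower and 3.89% higher. Adjusted p-values with the block are given below from the filtered fit where it is named, and the other blocked values are from the fit over all genes. The median log2 fold change over the 10 markers was −1.45, and −1.35 with the block, against 0.03 over all genes at a mean of 1 CPM or more. In 4 of the 10 markers all 3 WT-Topot libraries lay below all 3 WT-Veh libraries, which held for 13.2% of the 13736 genes at a mean of 1 CPM or more in these groups.

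**Figure D1:**
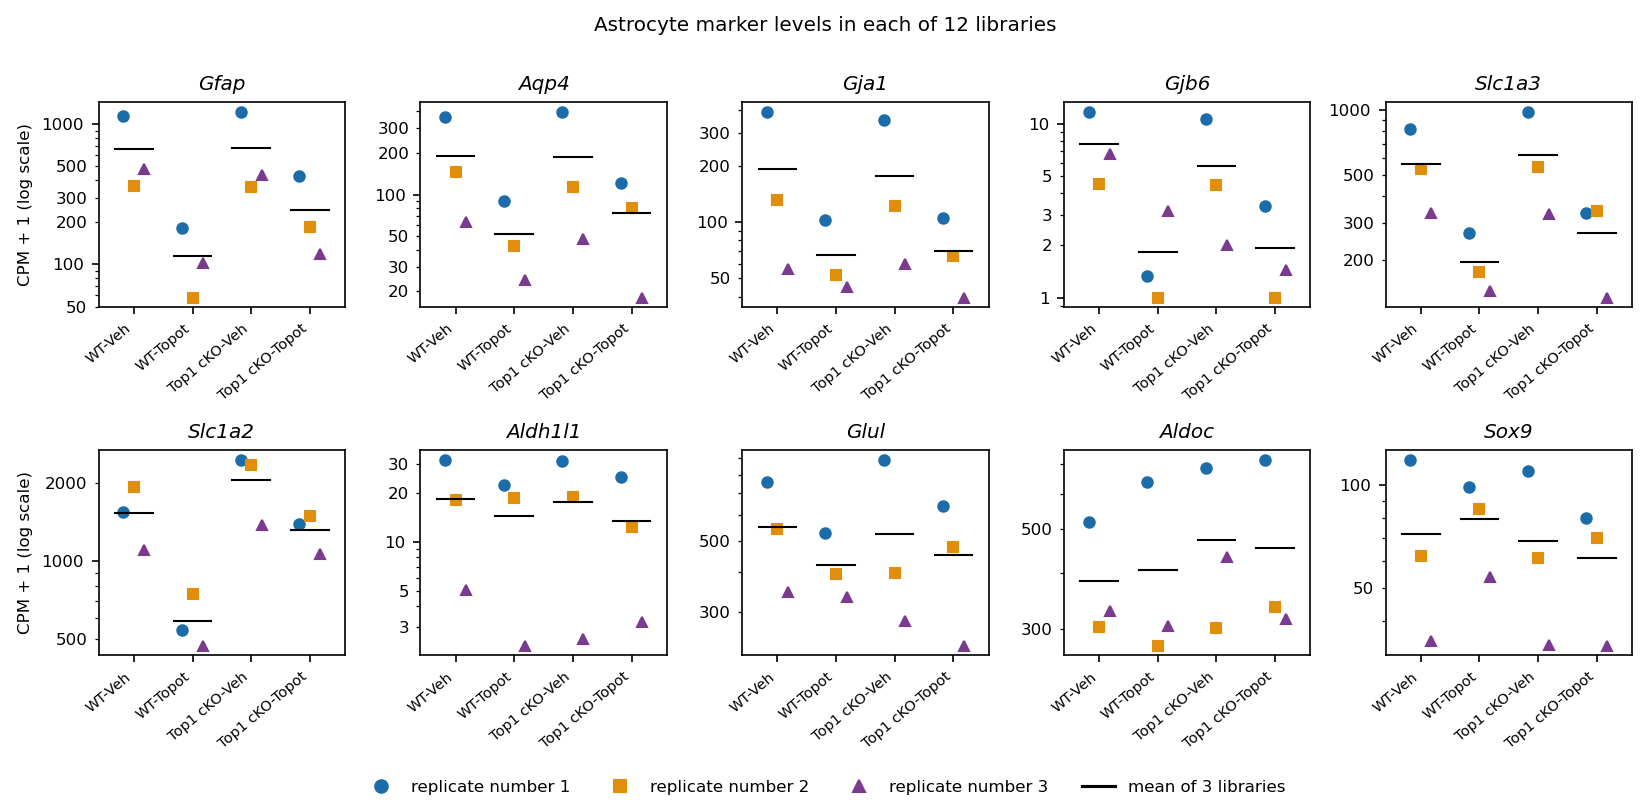
Level of each astrocyte marker in the 12 libraries, as CPM + 1 on a log axis, by group, with the symbol showing the replicate number and the line the mean of 3 libraries. *Gfap*, *Gjb6*, *Slc1a2* and *Slc1a3* were lower in all WT-Topot than in all WT-Veh libraries. In *Aqp4*, *Gja1*, *Aldh1l1*, *Glul* and *Sox9* replicate number 1 was highest and number 3 lowest in every group.

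*Gfap* encodes the intermediate filament that is the most widely used mark of astrocytes. It stood at 1151, 364 and 481 CPM in WT-Veh libraries 1, 2 and 3 and at 181, 57.0 and 101 CPM in WT-Topot libraries 1, 2 and 3. The groups did not overlap, and the WT-Topot library with the most *Gfap* held less than the WT-Veh library with the least. The log2 fold change was −2.54 ± 0.37 (SE), with an adjusted p of 1.74e-04, and −2.53 ± 0.12 with the block. The 3 ratios between libraries of the same number were −2.66, −2.66 and −2.23 on the log2(CPM + 1) scale. *Gfap* thus showed nearly the same relative fall in each numbered pair, although its level in number 1 was well above the other two in both groups.

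The glutamate transporters fell as well. *Slc1a2* stood at 1550.4, 1937 and 1103 CPM in WT-Veh and at 538, 745 and 468 CPM in WT-Topot, with no overlap. Its log2 fold change was −1.39 ± 0.21, with an adjusted p of 1.85e-04. *Slc1a3* stood at 820.1, 534 and 333 CPM in WT-Veh and at 267, 175 and 143 CPM in WT-Topot, again with no overlap. Its log2 fold change was −1.52 ± 0.27, with an adjusted p of 0.00106, which lost the call when genes with low counts were filtered out (0.0123) or when all 12 libraries shared a fit (0.0165). *Slc1a2*, the transporter of mature astrocytes in the forebrain, and *Slc1a3*, the transporter already present in radial glia, thus declined to a similar extent, 2.62-fold and 2.87-fold.

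The channel and gap junction genes fell in every numbered pair, but passed only when the numbers were taken into account. A fall in 3 of 3 pairs was seen in 24.1% of 13720 genes at a mean of 1 CPM or more. *Aqp4* stood at 361, 145 and 62.2 CPM in WT-Veh and at 89.1, 41.2 and 23.1 CPM in WT-Topot, so that WT-Topot library 1 lay above WT-Veh library 3. Its log2 fold change was −1.88 ± 0.45 with an adjusted p of 0.0168, and −1.81 ± 0.15 with an adjusted p of 5.22e-06 in the filtered fit with the block. *Gja1* stood at 392, 131 and 55.3 CPM in WT-Veh and at 102, 50.9 and 44.1 CPM in WT-Topot. Its log2 fold change was −1.55 ± 0.44 with an adjusted p of 0.0522, and −1.33 ± 0.23 with an adjusted p of 0.00159 in the filtered fit with the block. The fall of *Gja1* was uneven, with log2 ratios of −1.93, −1.35 and −0.32 for numbers 1, 2 and 3. *Gjb6*, the rarer connexin, stood at 10.8, 3.51 and 5.76 CPM in WT-Veh and at 0.335, 0 and 2.14 CPM in WT-Topot, from 37, 8 and 10 counts and from 1, 0 and 5 counts. Its groups did not overlap, and its log2 fold change of −3.18 ± 0.78 had an adjusted p of 0.0161, and of 0.00792 in the filtered fit with the block (−3.18 ± 0.73).

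The calls of these 3 genes also depended on single libraries in the fit without the block. Leaving out WT-Veh library 3 called all 3 genes, leaving out WT-Topot library 1 called *Aqp4* and *Gja1*, and leaving out WT-Veh library 2 called *Aqp4* and *Gjb6*. Leaving out WT-Topot library 3, which held 5 of the 6 WT-Topot counts of *Gjb6*, called *Gjb6*, at −5.11. With the block and only numbers 2 and 3, *Gjb6* no longer passed (−2.36, adjusted p = 0.0621), while the other 5 genes did.

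The remaining 4 markers did not pass in WT cultures, with or without the block, when all numbers were kept. With the block and number 3 left out, more markers were lower than with all numbers. Not all of these 4 therefore stayed short of the threshold there. *Glul* stood at 757, 543 and 346 CPM in WT-Veh and at 528, 394 and 333 CPM in WT-Topot. It was lower in 3 of 3 pairs, as were 24.1% of 13720 genes. Its log2 fold change was −0.38 ± 0.23, and −0.35 ± 0.11 and an adjusted p of 0.0200 with the block. *Aldh1l1* stood at 31.0, 17.1 and 4.03 CPM in WT-Veh and at 21.4, 17.5 and 1.28 CPM in WT-Topot, with a log2 fold change of −0.39 ± 0.57. *Aldoc* stood at 519, 303 and 329 CPM in WT-Veh and at 636, 275 and 304 CPM in WT-Topot, with a log2 fold change of 0.09 ± 0.26. *Sox9* stood at 118, 60.9 and 34.0 CPM in WT-Veh and at 97.9, 84.2 and 52.7 CPM in WT-Topot, with a log2 fold change of 0.13 ± 0.31. The WT-Veh and WT-Topot libraries of these 4 genes overlapped, and with the block the SE of *Aldoc*, 0.11 around a log2 fold change of 0.02, was small beside the fall of *Gfap*. With topotecan the filament, transporter, water channel and connexin genes thus fell, while the metabolic enzymes and the lineage factor did not pass. Whether the change of 1 marker differed from that of another was not tested.

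Gene length was read beside the fall. In the annotation of mm9, *Slc1a2* (chr2:102498816-102630941) spans 132 kb, *Aldh1l1* (chr6:90436421-90550197) 114 kb and *Slc1a3* (chr15:8584124-8660764) 76.6 kb, while *Aldoc* at 4.81 kb, *Sox9* at 5.54 kb and *Glul* at 9.78 kb are the shortest. *Gfap* (chr11:102748650-102762226) spans 13.6 kb. The 6 members that fell thus span 10.3 to 132 kb, and the 3 shortest did not pass. *Aldh1l1*, the second longest, at 7 to 106 counts per WT-Veh library, did not pass either. *Gjb6* passed with the block on 8 to 37 counts. A link between length and the fall was not tested. *Gfap*, *Slc1a2*, *Aldh1l1* and *Glul* overlap other annotated genes, and the setting for strand in the authors' counting is not given in the sources used here, so their counts may include reads of those neighbours.

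The promoters of members that fell and of a member that did not were read for short motifs of factors that act on astrocyte genes. RefSeq promoter windows of GRCm38.p6 were used for 8 of the 10 members, all but *Aqp4* and *Sox9*, and the 250 bases before the start site are printed 5′ to 3′ on the strand of the gene. Capitals mark the matches to TTCNNNGAA or TTCNNNNGAA, the STAT palindrome with a spacing of 3 or 4 bases, and to TGANTCA, the site of AP-1, each searched on both strands.

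Gfap, chr11:102897201-102897450: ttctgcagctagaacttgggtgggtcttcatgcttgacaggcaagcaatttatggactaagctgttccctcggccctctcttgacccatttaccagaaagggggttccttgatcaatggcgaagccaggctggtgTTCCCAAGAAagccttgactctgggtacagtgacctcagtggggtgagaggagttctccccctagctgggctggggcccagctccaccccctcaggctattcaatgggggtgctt
Slc1a3, chr15:8710808-8711057: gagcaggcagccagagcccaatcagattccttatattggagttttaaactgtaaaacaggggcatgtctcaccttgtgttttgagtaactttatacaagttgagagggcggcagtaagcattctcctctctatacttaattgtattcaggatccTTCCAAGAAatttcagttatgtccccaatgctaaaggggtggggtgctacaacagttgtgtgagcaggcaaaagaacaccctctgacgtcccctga
Gja1, chr10:56377050-56377299: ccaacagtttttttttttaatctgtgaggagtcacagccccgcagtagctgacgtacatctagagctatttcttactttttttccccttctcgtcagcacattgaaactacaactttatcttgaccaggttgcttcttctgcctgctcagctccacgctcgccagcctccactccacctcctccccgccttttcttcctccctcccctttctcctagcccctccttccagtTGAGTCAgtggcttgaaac
Aldoc, second start site, chr11:78323948-78324197: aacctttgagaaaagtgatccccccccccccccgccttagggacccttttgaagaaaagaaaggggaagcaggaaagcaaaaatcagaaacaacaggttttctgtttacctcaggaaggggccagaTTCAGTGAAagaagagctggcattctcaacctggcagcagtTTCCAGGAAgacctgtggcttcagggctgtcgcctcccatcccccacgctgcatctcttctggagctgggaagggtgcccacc

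*Gfap* held the STAT palindrome with a spacing of 4 from 115 to 106 bases before its start, *Slc1a3* held that with a spacing of 3 from 96 to 88 bases before it, and *Gja1* held the AP-1 site from 19 to 13 bases before it. The second *Aldoc* window held the palindrome with a spacing of 3 at 2 places, and *Aldoc* did not pass the test. Of all 32851 windows, 7.02% held the spacing of 3, 5.85% the spacing of 4 and 6.75% the AP-1 site. TTGGC, the short site of nuclear factor I (NFI), was found on either strand in windows of *Slc1a2*, *Glul* and *Aldoc* and in 41.5% of all windows, and its inverted repeat with a spacing of 5 was in 0 of the 9 windows of members and in 0.0365% of all windows. None of these motifs was in the windows of all members that fell and had a window, and a match is a description of the letters only.

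The second comparison asked whether the neuronal deletion of *Top1* changed the markers in vehicle. Without the block 0 of 10 markers were lower and 0 higher, where 0.126% of all genes were lower and 0.0460% higher. At an unadjusted p none of the 10 was below 0.05. With the block, 0 were lower and 1 was higher, where 2.95% of all genes were lower and 2.60% higher. The gene that passed with the block was *Slc1a2*, at 2463, 2346 and 1379.9 CPM in Top1 cKO-Veh, with a log2 fold change of 0.42 ± 0.09 and an adjusted p of 4.04e-05 with the block, against 0.668 without it. In the filtered fit with the block its adjusted p was 0.01003, just short of the threshold, and 0 of 10 markers passed, where 3.88% of 11974 genes were lower and 3.67% higher. It was higher in 3 of 3 pairs, with log2 ratios of 0.67, 0.28 and 0.32, as were 23.7% of 13720 genes at a mean of 1 CPM or more. It did not pass with the block when the libraries of number 1 were left out.

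The other markers stayed near their control level. *Gfap* stood at 1233, 358 and 431 CPM in Top1 cKO-Veh and differed from WT-Veh by 0.02 ± 0.42 on the log2 scale, or −0.02 ± 0.10 with the block. With the block, the differences of the other 8 members ran from −0.48 ± 0.41 for *Gjb6* to 0.26 ± 0.11 for *Aldoc*. The median difference over the 10 markers was −0.05, and −0.07 with the block. The groups of all 10 overlapped.

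The third comparison asked what topotecan did in cultures whose neurons had lost *Top1*. Here 0 of 10 markers passed without the block, where 0.00837% of all genes were lower and 0% higher, that is 2 genes in all. At an unadjusted p below 0.05, 6 of the 10 were lower, and the share of all genes at that cut was not counted. With the block 5 of 10 were lower and 0 higher, where 1.74% of all genes were lower and 0.858% higher. Those 5 were *Gfap*, *Aqp4*, *Gja1*, *Slc1a2* and *Slc1a3*, all of them among the 6 that fell with the block in WT cultures. The same 5 passed in the filtered fit with the block, where 0.991% of 11909 genes were lower and 0.227% higher. The libraries of the groups overlapped for every marker, where 6.54% of 13625 genes lay apart and lower. The median over the 10 markers was −0.92, and −0.89 with the block.

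*Gfap* stood at 425, 184 and 117 CPM in Top1 cKO-Topot libraries 1, 2 and 3. Each was below the Top1 cKO-Veh library of its number, by −1.54, −0.96 and −1.87 on the log2 scale. The log2 fold change was −1.44 ± 0.13 in the filtered fit with the block (adjusted p = 1.80e-04) and −1.47 ± 0.43 without it (adjusted p = 0.495). *Slc1a2* stood at 1391, 1486 and 1062 CPM, a log2 fold change of −0.61 ± 0.06 with the block and −0.64 ± 0.20 without. *Slc1a3* stood at 987, 544 and 329 CPM in Top1 cKO-Veh and at 331, 338 and 133 CPM in Top1 cKO-Topot, a change of −1.17 ± 0.09 with the block. All 3 genes fell in each numbered pair, as did 20.7% of 13720 genes, while the spread between numbers kept the groups overlapping.

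*Aqp4* stood at 397, 113 and 46.6 CPM in Top1 cKO-Veh and at 121, 78.4 and 17.0 CPM in Top1 cKO-Topot, a log2 fold change of −1.19 ± 0.13 with the block. *Gja1* stood at 351, 122 and 58.6 CPM in Top1 cKO-Veh and at 104, 65.1 and 38.5 CPM in Top1 cKO-Topot, a change of −1.16 ± 0.13 with the block. *Gjb6* stood at 9.78, 3.43 and 1.00 CPM in Top1 cKO-Veh and at 2.39, 0 and 0.437 CPM in Top1 cKO-Topot, with a change of −2.42 ± 0.68 and an adjusted p of 0.0116 with the block. The channel and connexin genes were lower with topotecan in 3 of 3 pairs each, as were 20.7% of 13720 genes. *Gjb6*, on 7 counts in all in Top1 cKO-Topot, fell short of the threshold. Leaving out Top1 cKO-Veh library 3, which had the least *Aqp4*, *Gja1*, *Slc1a2* and *Slc1a3* of its group, brought the same 5 genes past the threshold without the block.

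The 4 markers that did not pass in WT cultures did not pass here either. *Glul* stood at 890.1, 396 and 282 CPM in Top1 cKO-Veh and at 639, 475 and 235 CPM in Top1 cKO-Topot. *Aldh1l1* stood at 30.5, 17.9 and 1.50 CPM in Top1 cKO-Veh and at 23.9, 11.3 and 2.19 CPM in Top1 cKO-Topot. *Aldoc* stood at 683, 301 and 434 CPM in Top1 cKO-Veh and at 713, 336 and 315 CPM in Top1 cKO-Topot. *Sox9* stood at 109, 60.2 and 33.1 CPM in Top1 cKO-Veh and at 78.9, 69.1 and 32.8 CPM in Top1 cKO-Topot. Their log2 fold changes with the block were −0.14 ± 0.08, −0.41 ± 0.26, −0.06 ± 0.08 and −0.10 ± 0.15, in that order, and the libraries of the same number moved in both directions for each of them.

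**Figure D2:**
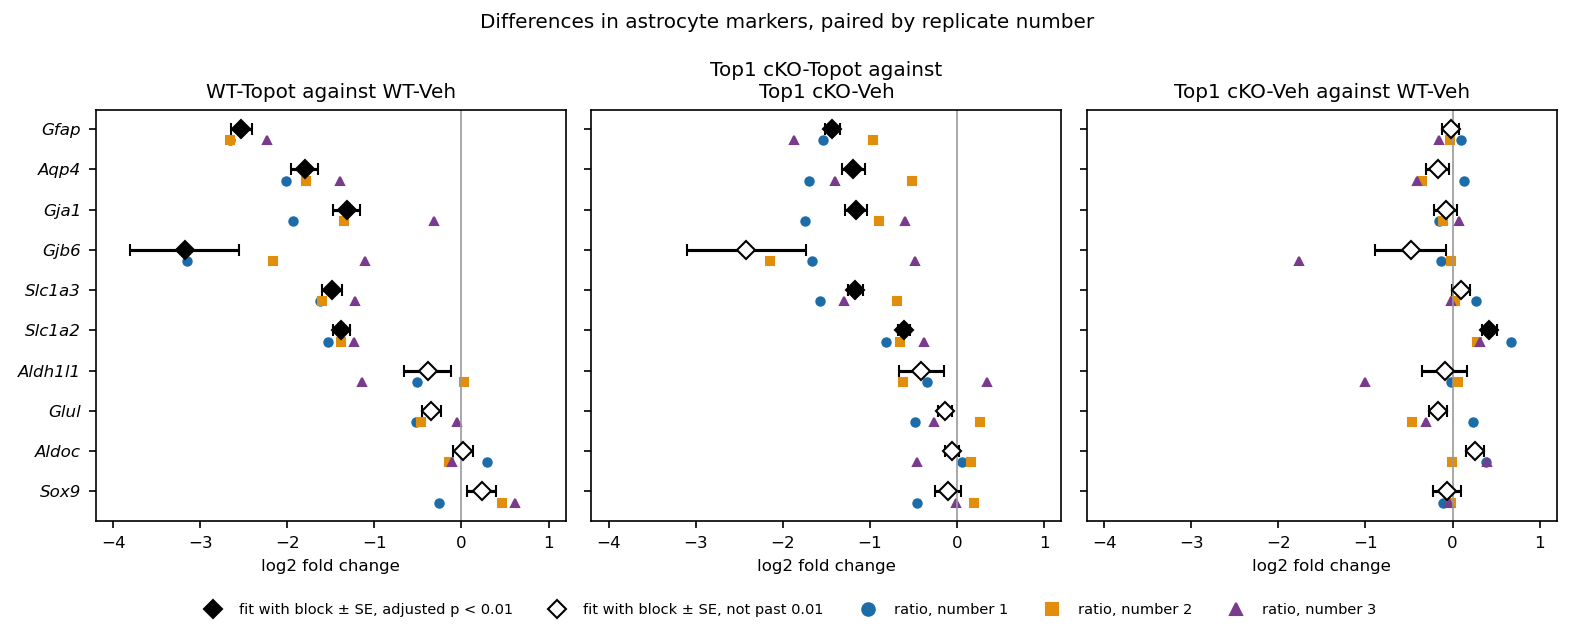
Log2 fold change of each marker with replicate numbers as a block over all genes (diamond, ± SE, filled where the adjusted p was below 0.01), with the log2(CPM + 1) ratios of same-numbered libraries below it, for topotecan without and with the deletion and for the deletion in vehicle. *Gfap*, *Aqp4*, *Gja1*, *Slc1a2* and *Slc1a3* were filled on the negative side in both topotecan panels, and *Slc1a2* alone was filled in the deletion panel, a call lost in the filtered fit.

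Whether the effect of topotecan differed with the deletion was tested as an interaction over all 12 libraries. Without the block 0 of 10 markers passed, where 0.0377% of all genes were lower and 0.398% higher. At an unadjusted p below 0.05 there was 1, *Slc1a2*, and all genes were not counted at that cut. With the block 2 were higher and 0 lower, where 2.44% of all genes were higher and 1.53% lower. These were *Gfap*, with an interaction of 1.11 ± 0.19 on the log2 scale (adjusted p = 3.38e-05), and *Slc1a2*, with 0.75 ± 0.12 (adjusted p = 2.18e-05). Both also passed in the filtered fit with the block, at adjusted p-values of 0.00770 and 0.00286, where 3.67% of 12488 genes were higher and 1.77% lower. The fall of both genes was thus smaller with the deletion than without it, from 5.76-fold to 2.70-fold for *Gfap* and from 2.60-fold to 1.53-fold for *Slc1a2* with the block. For *Aqp4*, *Gja1*, *Gjb6* and *Slc1a3* the interaction was 0.63 ± 0.24, 0.18 ± 0.25, 0.71 ± 1.10 and 0.32 ± 0.17 and did not pass.

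Against WT-Veh, the Top1 cKO-Topot cultures had 0 of 10 markers lower and 0 higher without the block, where 1.21% of all genes were lower and 0.473% higher. At an unadjusted p below 0.05, 5 of the 10 were lower, again without a count of all genes at that cut. With the block 5 were lower and 0 higher, where 4.02% of all genes were lower and 3.34% higher. The 5 were *Gfap* (−1.45 ± 0.13), *Aqp4* (−1.36 ± 0.16), *Gja1* (−1.21 ± 0.17), *Gjb6* (−2.86 ± 0.63) and *Slc1a3* (−1.07 ± 0.12). The same 5 passed in the filtered fit with the block, where 5.82% of 11898 genes were lower. *Slc1a2* came to −0.18 ± 0.09 and did not pass. *Gjb6* was the single member whose libraries lay apart, where 14.5% of 13712 genes lay apart and lower. These 5 calls were lost when the libraries of number 1 were left out of the fit with the block, and they were made without the block when WT-Veh library 3 or Top1 cKO-Topot library 1 was left out. The comparison shares its WT-Veh libraries with the first.

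The replicate number was the other axis along which the markers varied. Of the variance of log2(CPM + 1) over the 12 libraries, the 3 numbers took 94.6% for *Aldh1l1*, 88.8% for *Aldoc*, 85.9% for *Sox9* and 81.9% for *Glul*, and the 4 groups took 2.49 to 6.45%. For *Aqp4* and *Gja1* the numbers took 63.7 and 61.9% and the groups 32.4 and 30.1%. The order was the other way for *Slc1a2*, with 82.6% for the groups and 15.1% for the numbers, and for *Gfap* (67.5 and 29.3%), *Slc1a3* (60.1 and 35.5%) and *Gjb6* (59.2 and 17.7%). Over all 13720 genes at a mean of 1 CPM or more, the medians were 40.1% for the groups and 25.9% for the numbers.

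**Figure D3:**
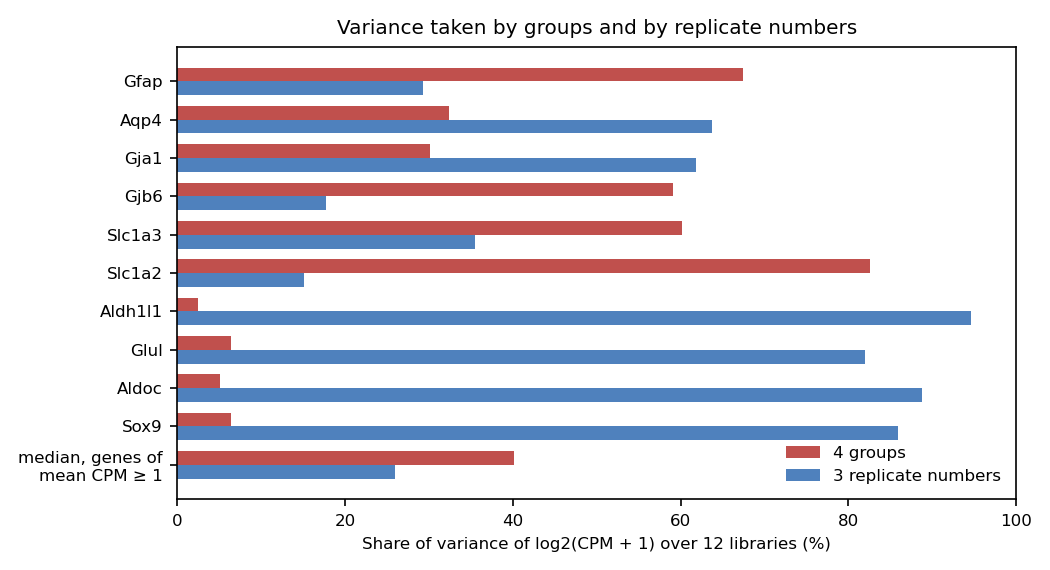
Share of the variance of log2(CPM + 1) over the 12 libraries taken by the 4 groups and by the 3 replicate numbers, in percent, for each marker and as the median over genes at a mean of 1 CPM or more. For *Aldh1l1*, *Glul*, *Aldoc* and *Sox9* the numbers took 81.9 to 94.6%, and for *Slc1a2* the groups took 82.6%.

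Libraries of number 1 held the most RNA of most markers. Number 1 was the highest of the 3 in all 4 groups for 7 of the 10 markers, which held for 6.94% of 13720 genes, and number 3 was the lowest in all 4 groups for 7 of 10, which held for 11.6% of genes. The mean over the 4 groups of number 1, divided by that of number 3, was 11.9 for *Aldh1l1*, 6.50 for *Aqp4* and 4.83 for *Gja1*, and 1.84 for *Aldoc* and 1.48 for *Slc1a2*. *Aldh1l1* stood at 21.4 to 31.0 CPM in the libraries of number 1, at 11.3 to 17.9 CPM in those of number 2 and at 1.28 to 4.03 CPM in those of number 3, so that the numbers did not overlap whatever the group. Its values in number 3 rested on 7, 3, 3 and 5 counts, and the library of number 3 had the lowest total counts in each group. *Sox9* stood at 78.9 to 118, 60.2 to 84.2 and 32.8 to 52.7 CPM, and numbers 1 and 2 overlapped. The summed neuronal markers ran the other way, at 7714 to 8725 CPM for number 1 and 8204 to 10006 CPM for number 3, with overlap. What the numbers stand for (a day, a litter or another shared feature of the cultures) cannot be told from the labels.

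After the group means were subtracted, most of the markers varied in parallel over the 12 libraries. *Aqp4* had a Pearson r of 0.99 with *Slc1a3* and with *Glul*, 0.98 with *Sox9* and 0.95 with *Gja1*. *Gfap* was closest to *Aldoc*, at 0.94, and both were lower in number 2 than in number 3 in 3 of the 4 groups. *Slc1a2* and *Gjb6* had lower values. *Slc1a2* was at 0.09 with *Gfap*, 0.03 with *Aldoc* and 0.12 with *Gjb6*, against 0.59 to 0.82 with the other 6 members. *Gjb6* ran from 0.29 with *Aldh1l1* to 0.71 with *Gfap* among members other than *Slc1a2*. These values share libraries and depth and are given as a description.

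Of 36 further genes with high expression in astrocytes, 3 fell and 0 rose with topotecan in WT cultures without the block. The share of all genes was 2.04% lower and 0.682% higher. The block gave 11 lower and 2 higher, beside 5% and 3.24% of all genes. The filtered fit with the block gave 7 lower and 1 higher of 32 tested, beside 7.52% and 3.89% of 12145 genes. The median log2 fold change of the 36 genes with the block was −0.43, against −1.35 for the 10 markers and 0.03 for all genes. In the cultures with the deletion, 0 passed without the block, where 0.00837% of all genes were lower and 0% higher. The block gave 14 lower and 1 higher, with a median of −0.55, beside 1.74% and 0.858% of all genes. The filtered fit with the block gave 9 lower and 0 higher of 34 tested, beside 0.991% and 0.227% of 11909 genes. *Slc4a4*, a sodium bicarbonate cotransporter, fell from 150.1 ± 65.1 CPM (SD, n = 3) to 28.4 ± 7.18 CPM in WT cultures, a log2 fold change of −2.39 ± 0.29 and an adjusted p of 2.28e-05. *Apoe*, the lipoprotein through which astrocytes export cholesterol, fell from 1395 ± 831 to 540 ± 166 CPM, a change of −1.36 ± 0.29 and an adjusted p of 0.00584. With the block *Ndrg2* (−0.77) and *Ppap2b* (−0.86) were lower too, also in the filtered fit. *Slc6a11*, the GABA transporter GAT-3, was the gene that rose in both blocked fits (1.15 ± 0.18 over all genes), with same-numbered ratios of 1.43, 0.91 and 1.01. *Kcnj10*, the potassium channel Kir4.1, passed over all genes and not in the filtered fit, with ratios of 1.78, −0.27 and 1.82 in WT cultures and 1.61, 1.24 and −0.19 with the deletion. The share of higher genes in this list was near the background, 3.24% of all genes and 3.89% in the filtered fit.

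In vehicle, 1 of these 36 genes was lower and 4 were higher with the deletion and the block, where 2.95% of all genes were lower and 2.60% higher. In the filtered fit with the block 1 was lower and 1 higher of 33 tested. That was near the share of all genes in that fit, where 3.88% of 11974 genes were lower and 3.67% higher. Without the block none passed. *Apoe* was the lower gene, at 802 ± 495 CPM in Top1 cKO-Veh and −0.81 ± 0.09 with the block. *Slc6a11* was the higher gene in both blocked fits, at 0.70 ± 0.18. *Fabp7*, a fatty acid binding protein of radial glia, did not pass in the filtered fit, and its ratios were 0.43, −0.09 and 2.68, so that number 3 carried its value.

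**Figure D4:**
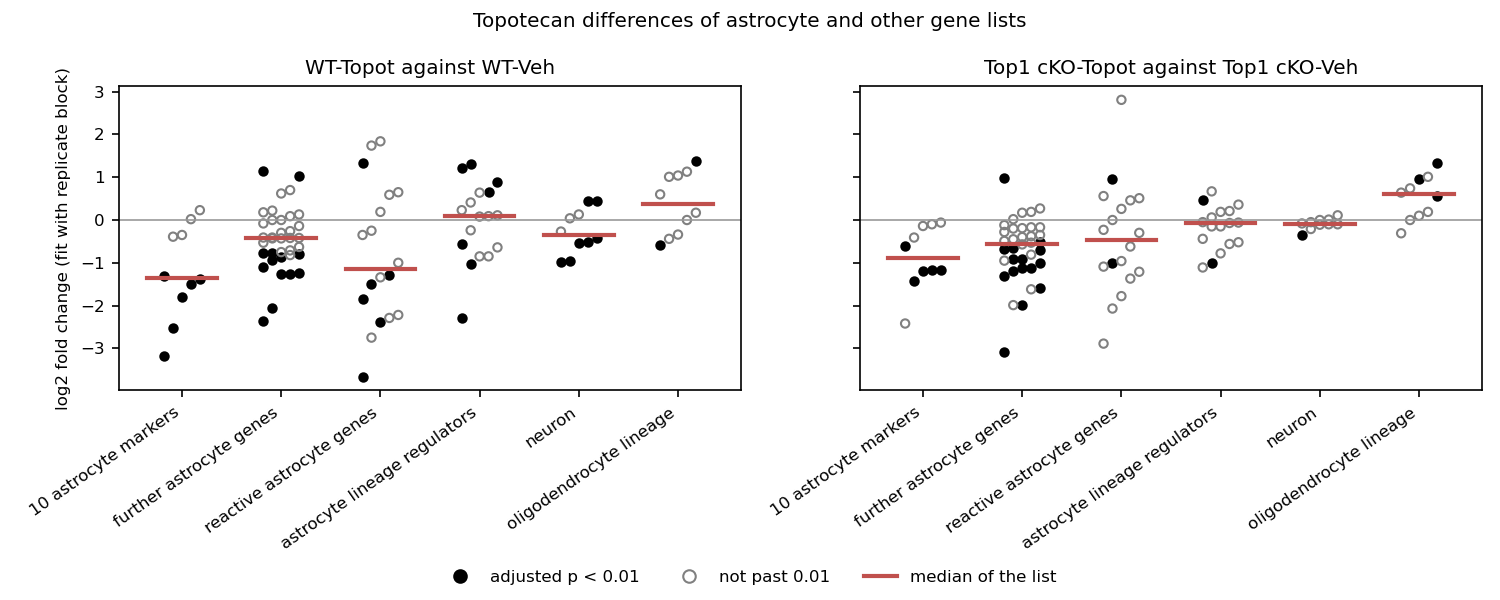
Log2 fold change of every gene of 6 lists with replicate numbers as a block over all genes, for topotecan without and with the deletion; filled points had an adjusted p below 0.01 and the red line is the median of the list. The 10 astrocyte markers had medians of −1.35 and −0.89 and the 36 further astrocyte genes −0.43 and −0.55, while the oligodendrocyte lineage had 0.38 and 0.60.

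Close relatives of the members moved in both directions. Of 16 genes of the same families, 1 was lower and 1 higher in WT-Topot without the block. The share of all genes was 2.04% lower and 0.682% higher. The block gave 4 lower and 3 higher, beside 5% and 3.24% of all genes. The filtered fit with the block gave 2 lower and 3 higher of 9 tested, beside 7.52% and 3.89% of 12145 genes. *Nes* and *Vim* encode the intermediate filaments nestin and vimentin, which immature and reactive astrocytes share with GFAP. *Nes* rose from 45.2 ± 11.7 to 106 ± 18.9 CPM, a log2 fold change of 1.22 ± 0.22 and an adjusted p of 0.00167, with no overlap of the groups. *Vim* stood at 221 ± 144 and 518 ± 195 CPM and passed with the block at 1.34 ± 0.12. With the deletion both were also higher with the block, by 1.28 ± 0.13 for *Nes* and 0.95 ± 0.09 for *Vim*. *Gfap* thus went down while *Nes* and *Vim* went up, and bulk RNA does not show in which cells. *Slc1a4*, a neutral amino acid transporter of the family of *Slc1a2* and *Slc1a3*, was lower by −0.83 ± 0.18 (adjusted p = 0.00817). With the block *Aldh1l2*, a relative of *Aldh1l1*, was lower with topotecan (−1.58) and with the deletion (−1.88), and *Sox8*, a relative of *Sox9*, was higher with topotecan (1.22), also in the filtered fit.

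Of 18 genes linked to reactive astrocytes, 1 was lower and 0 higher in WT-Topot without the block. The share of all genes was 2.04% lower and 0.682% higher. The block gave 5 lower and 1 higher, beside 5% and 3.24% of all genes. The filtered fit with the block gave 3 lower and 1 higher of 11 tested, beside 7.52% and 3.89% of 12145 genes. *Lcn2*, which encodes lipocalin 2, stood at 4.03 to 69.3 CPM in WT-Veh and at 0 to 2.68 CPM in WT-Topot, a log2 fold change of −3.98 ± 0.88 and an adjusted p of 0.00837. In both blocked fits *Serpina3n* (−1.28) and the complement gene *C3* (−2.38) were lower and *Vim* was higher. With the deletion in vehicle, *Lcn2* (−3.42) and *C3* (−1.97) were lower in both blocked fits. *Lcn2* and *C3* were highest in a single WT-Veh library, at 69.3 and 29.6 CPM. Of the 18 genes 16 averaged 1 CPM or more.

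Of 17 transcription factors and signalling genes of the astrocyte lineage, 0 passed without the block in WT cultures, where 2.04% of all genes were lower and 0.682% higher. The block gave 3 lower and 4 higher, beside 5% and 3.24% of all genes. The filtered fit with the block gave 3 lower and 2 higher of 16 tested, beside 7.52% and 3.89% of 12145 genes. *Id3* (−2.28), *Nfia* (−1.04) and *Nfib* (−0.56) were lower, the last 2 of them NFI factors that drive the switch from neurons to astrocytes. *Lhx2* (0.88) and *Sox8* (1.22) were higher, and these 5 passed in both blocked fits. With topotecan and the deletion, 0 passed in the filtered fit with the block.

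Markers of other cell types were read beside these results. Neuronal markers summed to 7714 to 9930 CPM in WT-Veh and to 8087 to 8684 CPM in WT-Topot. Of the 10, 1 was lower without the block (*Rbfox3*, −0.96 ± 0.18), where 2.04% of all genes were lower. The block gave 5 lower and 2 higher, beside 5% and 3.24% of all genes. The filtered fit with the block gave 4 lower and 1 higher, beside 7.52% and 3.89% of 12145 genes. Of 10 oligodendrocyte lineage genes, which share progenitors with astrocytes, 1 was lower and 1 higher in WT-Topot with the block over all genes. The share of all genes was 5% lower and 3.24% higher. *Olig1* was the higher gene, in both blocked fits (1.38), and *Mbp* the lower one (−0.59), a call lost in the filtered fit. After the deletion, 0 of the 7 tested passed with topotecan in the filtered fit. *Olig1* was also 1.51 ± 0.19 higher in Top1 cKO-Veh than in WT-Veh with the block, in both fits. Microglial markers summed to 2.51 to 22.8 CPM over the 12 libraries and endothelial and mural markers to 15.2 to 45.8 CPM. Endothelial and mural markers summed to 18.4 to 30.1 CPM in WT-Veh and 15.2 to 18.1 CPM in WT-Topot. Proliferation genes summed to 30.8 to 55.5 CPM, and 0 of 10, *Pcna* and *Ccna2* among them, passed in any comparison with or without the block. The part of these cells in the fall of the astrocyte markers was not tested.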

How the data were processed

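The libraries of the 12 cultures were made by the authors from polyA RNA with the TruSeq kit and read as paired ends of 50 bases. The authors used TagDust to filter reads and TopHat to align them to mm9, removed rRNA reads and deposited raw counts over RefSeq exons by gene symbol, with no normalization. The counting program, its strand setting and versions are not given in the sources used here.

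The counts were fitted with edgeR 4.0.16 (R 4.3.3), TMM scaling, glmQLFit and glmQLFTest, no filter on genes, 6 libraries per comparison and 12 for the interaction, with Benjamini-Hochberg adjustment over all 23893 genes and an FDR of 0.01. CPM values use TMM library sizes, and log2 ratios of libraries a pseudocount of 1. Tested on simulated counts with known changes for WT-Topot against WT-Veh, the fit without the block made false calls above the FDR, fewer of them with a filter, and the blocked fits stayed near it on counts drawn from their own dispersions. Whether replicate numbers pair cultures was checked on deviations from group means over 13720 genes: the correlation was 0.261 to 0.485 in 18 same-numbered pairs and −0.384 to −0.0494 in 36 others, so blocked values are printed beside results whose call they change. P-values measure the spread between these libraries. The members and gene lists were chosen with earlier results of these data known. All 10 members are named, and from other lists the genes past the threshold, at most 6 per list and comparison, and some of these are not reported here. Alternatives were other scalings (RLE, total counts), a filter, DESeq2 1.42.0, an FDR of 0.05, single libraries or numbers left out, the block, and the block with filterByExpr, which was added after the data were seen. Gene spans are from GENCODE vM1.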

Additional observations from a re-analysis of the deposited data

Results flagged for a closer look

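The interaction between drug and deletion was past the threshold for 2 of the 10 markers when the replicate number was a block, so their response to topotecan differed between cultures without and with the deletion. It was 1.11 ± 0.19 on the log2 scale for *Gfap*, whose same-numbered ratios were −2.66, −2.66 and −2.23 without the deletion and −1.54, −0.96 and −1.87 with it. It was 0.75 ± 0.12 for *Slc1a2*, whose ratios were −1.53, −1.38 and −1.24 without the deletion and −0.82, −0.66 and −0.38 with it. With the block and a filter on low counts both passed, at adjusted p-values of 0.00770 and 0.00286. Without the block neither passed, with adjusted p-values of 0.852 and 0.487. The share higher in this test with the block was 2.44% of all genes and 4.24% of 13720 genes at a mean of 1 CPM or more.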

How the results depend on the processing

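Another scaling (RLE or total counts), DESeq2 and a filter on low counts turned the direction of no marker in any comparison, and for topotecan the log2 fold changes of *Gfap*, *Aqp4*, *Gja1*, *Gjb6*, *Slc1a2* and *Slc1a3* stayed negative in both genotypes in every setting run. The depth limits *Gjb6* and *Aldh1l1*, which rest on as few as 0 and 3 counts in a library. Counts of markers past the threshold moved as follows, and the causes were not tested.

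In WT cultures 3 markers were lower with topotecan in the fit without the block. There were 6 with the replicate block, 5 at an FDR of 0.05, 6 when the libraries of number 3 were left out, and 5, 6 and 7 with the block when those of number 1, 2 or 3 were left out. Leaving out single libraries gave 3 to 6. For the deletion in vehicle, 1 marker was higher with the block, also without number 2 (1) or 3 (1), and 0 without the block. With topotecan and the deletion, 5 were lower with the block, 5 without number 3, and 5, 5 and 6 with the block when number 1, 2 or 3 was left out, and leaving out single libraries gave 0 to 5. For Top1 cKO-Topot against WT-Veh, 5 were lower with the block, 2 at an FDR of 0.05, 5 without number 3, and 5 and 5 with the block without number 2 or 3, and leaving out single libraries gave 0 to 5. For the interaction 2 were higher with the block, with all numbers (2) or without number 1 (2), 2 (2) or 3 (2). Leaving out number 1, 2 or 3 and the block were chosen together after the data were seen. With the block and a filter on low counts, also chosen after the data were seen, 6, 5 and 5 were lower in these 3 topotecan comparisons, 2 were higher for the interaction and 0 for the deletion, where *Slc1a2* lost its call. Over all genes, calls in either direction went from 1970 with the block to 1386 with block and filter for topotecan in WT cultures, and from 620 to 145 for topotecan with the deletion. The pairing of numbers changed no other call of a marker.

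These differences changed sign. With the block *Gfap* differed by −0.02 between Top1 cKO-Veh and WT-Veh, and by −0.01 with the block and filter. With the block and without number 1, *Gfap* came to −0.09 in that comparison, *Aldoc* to −0.14 with topotecan in WT cultures, *Glul* to 0.01 and *Sox9* to 0.11 with topotecan and the deletion, *Sox9* to 0.09 for Top1 cKO-Topot against WT-Veh, and *Gjb6* to −1.22 for the interaction. With the block and without number 2, *Gfap* came to −0.02 for the deletion, and *Slc1a3*, *Aldh1l1* and *Glul* to −0.01, 0.43 and −0.10 for the interaction. With the block and without number 3, *Aldh1l1* came to 0.02 for the deletion, and *Aldoc* to 0.12 with topotecan and the deletion and to 0.05 for the interaction. Without the block and number 3, *Aqp4* came to 0.01 for the deletion and *Aldoc* to 0.11 with topotecan and the deletion.

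When single libraries were left out, the log2 fold change changed sign for these members. For topotecan in WT cultures it ran from −0.87 to 0.32 for *Aldh1l1*, −0.40 to 0.35 for *Aldoc* and −0.18 to 0.71 for *Sox9*. For the deletion in vehicle it ran from −0.76 to 0.67 for *Gfap*, −1.24 to 0.84 for *Aqp4*, −1.09 to 0.92 for *Gja1*, −1.47 to 0.06 for *Gjb6*, −0.37 to 0.51 for *Slc1a3*, −0.77 to 0.63 for *Aldh1l1*, −0.70 to 0.23 for *Glul*, −0.08 to 0.58 for *Aldoc* and −0.60 to 0.50 for *Sox9*. For topotecan with the deletion it ran from −1.28 to 0.25 for *Aldh1l1*, −0.56 to 0.42 for *Glul*, −0.54 to 0.32 for *Aldoc* and −0.46 to 0.36 for *Sox9*. For Top1 cKO-Topot against WT-Veh it ran from −0.39 to 0.01 for *Slc1a2*, −1.35 to 0.22 for *Aldh1l1*, −0.61 to 0.04 for *Glul*, −0.23 to 0.54 for *Aldoc* and −0.55 to 0.35 for *Sox9*. For the interaction it ran from −0.34 to 1.73 for *Aqp4*, −0.84 to 1.16 for *Gja1*, −1.16 to 2.78 for *Gjb6*, −0.06 to 0.82 for *Slc1a3*, −0.87 to 0.63 for *Aldh1l1*, −0.16 to 0.80 for *Glul*, −0.61 to 0.36 for *Aldoc* and −0.88 to 0.22 for *Sox9*.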

Other observations

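The genes most like the 10 markers were sought among 11115 other genes that averaged 5 CPM or more, by Pearson's r with the mean standardised profile of the markers. Over the 12 libraries as they stand, the 8 closest were *Padi2* (0.963), *Dazap2* (0.961), *Pcx* (0.960), *Wwtr1* (0.955), *Elovl5* (0.952), *Scd4* (0.945), *Eva1a* (0.943) and *Slc2a1* (0.939). After group means were subtracted, the 8 closest were *Mlc1* (0.994), *Pcx* (0.992), *Calu* (0.989), *Tnfrsf12a* (0.987), *Cd109* (0.984), *Ndrg2* (0.982), *Abhd4* (0.982) and *Daam2* (0.977).

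*Mlc1* encodes a membrane protein of astrocyte end-feet and *Pcx* pyruvate carboxylase, an enzyme that the brain holds mainly in astrocytes. *Mlc1* followed the replicate numbers closely but not topotecan, with a log2 fold change of −0.07 ± 0.30 in WT cultures and −0.17 ± 0.39 in cultures with the deletion. *Pcx* passed with the block in WT cultures, at −0.76 ± 0.16, also when genes of low counts were filtered out. As *Pcx* was picked for its likeness to the markers in these same libraries, topotecan included, its pass is not a separate result. These correlations share libraries and depth and carry no test.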
